A study of Mus musculus with 28 samples.

Results

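The 14-3-3 genes were followed in ribosome-bound mRNA of mouse retinal ganglion cell (RGC) axons. The 6 members, Ywhab, Ywhae, Ywhag, Ywhah, Ywhaq and Ywhaz, were chosen by name, and all 6 were among the 23995 genes listed in each file. Axon-TRAP purifies HA-tagged ribosomes, with the mRNA they hold, from the superior colliculus (SC), where RGC axons end. All mice were C57BL/6 and carried the RiboTag allele, in which Cre recombination adds an HA tag to the ribosomal protein RPL22. Cre-positive mice also carried Pax6-alpha-Cre, which acts in progenitors of the peripheral retina, so RGC ribosomes are tagged while the cells of the SC itself are not. Cre-negative littermates carried no Cre, and whatever mRNA came down from their SC was background of the purification. Retina from Cre-positive mice was purified in the same way and held the tagged ribosomes of other retinal neurons as well as those of RGCs. Each homogenate pooled 6 SCs or 3 eyes, so no value belongs to a single animal. These 3 sources were each sequenced in 2 replicates at embryonic day E17.5, postnatal days P0.5 and P7.5 and in the adult, which gave 24 libraries. A further 4 adult libraries, 1 with and 1 without ribosome run-off from tagged SC and from retina, had no replicates.

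14-3-3 proteins are small acidic adaptors that work as homodimers or heterodimers. They bind phosphorylated serine or threonine sites on many client proteins, among them kinases, transcription factors and cytoskeletal regulators, and alter the place, partners or activity of the client. They are among the most abundant proteins of brain, and in growing axons they take part in growth-cone turning and in the response to guidance cues. Ywhab encodes 14-3-3β, Ywhae 14-3-3ε, Ywhag 14-3-3γ, Ywhah 14-3-3η, Ywhaq 14-3-3θ (also called τ) and Ywhaz 14-3-3ζ. Sfn, which encodes the epithelial form 14-3-3σ and is no member, was listed at 0 FPKM in every library but the first P0.5 retina library, where it stood at 0.0974, and had 0 reads in each run-off library.

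The 6 mRNAs come from genes on 5 chromosomes of the GRCm38 assembly. Their coding sequences are related over their length but identical over short stretches only. Ywhab (ENSMUSG00000018326) lies at chr2:163994960-164018588 on the plus strand, Ywhae (ENSMUSG00000020849) at chr11:75732869-75765845 on the plus strand and Ywhag (ENSMUSG00000051391) at chr5:135908409-135934616 on the minus strand. Ywhah (ENSMUSG00000018965) lies at chr5:33018816-33027966 on the plus strand, Ywhaq (ENSMUSG00000076432) at chr12:21390071-21417637 on the minus strand and Ywhaz (ENSMUSG00000022285) at chr15:36770770-36796929 on the minus strand. The coding stretch of 30 bases that is most alike over the family lies near the start of each coding sequence. It is shown because it lets the 6 members be compared base by base where they are closest. It reads 5′ to 3′ on the coding strand as below, with capitals where a member departs from Ywhaz.
Ywhaz: ctggtgcagaaggccaagctggccgagcag
Ywhaq: ctgAtCcagaaggccaagctggccgagcag
Ywhag: ctggtgcagaaAgccCGgctggccgagcag
Ywhab: ctggtAcagaaAgccaaActggcTgagcag
Ywhae: ctggtgTaCCaggcGaagctggcAgagcag
Ywhah: ctgCtgcagCGggcGCGActggcGgagcag
These stretches lie at chr15:36790933-36790962 (Ywhaz, exon 3), chr12:21417047-21417076 (Ywhaq, exon 2), chr5:135934362-135934391 (Ywhag, exon 1), chr2:164011626-164011655 (Ywhab, exon 2), chr11:75733046-75733075 (Ywhae, exon 1) and chr5:33019086-33019115 (Ywhah, exon 1). Even here Ywhaq departs from Ywhaz at 2 bases and Ywhah at 8.

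Over the aligned coding sequences, identity ran from 64.7% between Ywhae and Ywhaq to 78.9% between Ywhag and Ywhah. The longest identical run between any pair was 30 bases, between Ywhag and Ywhah, so no stretch of 50 bases was shared by 2 members. Sharing with genes outside the family was another matter. Of the runs of 50 bases in the Ywhaq transcript, 33.8% also occurred in transcripts of 10 other genes, mostly pseudogenes such as Gm2423 and Ywhaq-ps3. Among these was a noncoding transcript of Cdk5rap2, a gene listed in the files, which held 386 of the 2148 Ywhaq runs. For Ywhaz the share was 19.9% and for Ywhah 18.6%, with processed pseudogenes alone. For Ywhag it was 0.346%, or 12 runs found in transcripts of 250 genes of many kinds, and for Ywhab and Ywhae it was 0. Within the coding sequence the share reached 95.4% for Ywhaq and 93.5% for Ywhaz, so their levels carry the uncertainty of how such reads were assigned. Ywhae and Ywhaq also overlap a noncoding gene on the opposite strand, Gm26836 and Gm4419, neither of which is listed in the files. The libraries came from PCR-amplified cDNA and no source used here states a stranded count, so reads from such a partner cannot be told apart.

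Ywhae and Ywhaz made up most of the 14-3-3 mRNA in every library, tagged or not. FPKM, the level used here, scales the fragments of a gene by its transcript length and by the size of the library. This puts the genes on 1 scale, but a comparison between genes keeps the uncertainty of read assignment given above. Ywhaz had the highest median over the 24 libraries, 818 FPKM, followed by Ywhae at 565, Ywhag at 18.8, Ywhab at 5.30, Ywhaq at 1.45 and Ywhah at 0.511. Together Ywhae and Ywhaz held from 89.3% to 99.9% of the summed 14-3-3 FPKM of a library, and they were the 2 highest members in 23 of 24 libraries. The exception was the second adult Cre-positive SC library, in which Ywhag stood above Ywhaz. Some neighbours in this order were not separated by the libraries. Ywhaz was above Ywhae in 15 of 24 libraries and below it in 9, Ywhag was above Ywhab in 15 and below it in 9, and Ywhaq was above Ywhah in 10 and below it in 8. Only the step from Ywhae to Ywhag held in 24 of 24. The lower ranks also depend on the library: Ywhah was at 0 FPKM in both adult Cre-positive SC libraries. In the adult Cre-positive SC library counted without run-off it had 576 reads, above Ywhab at 474 and Ywhaq at 235.

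**Figure D1:**
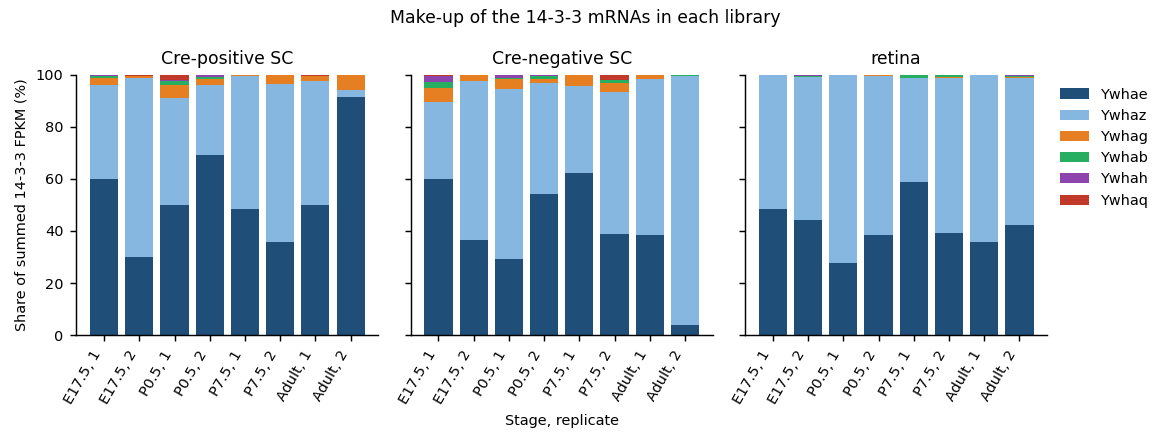
Stacked bars give the share (%) of the summed FPKM of the 6 genes held by each, for every library by stage and replicate (x axis), with 1 panel for each of the 3 sources. Ywhae and Ywhaz fill at least 89.3% of each bar, and the adult SC bars of replicate 2 split between them in opposite ways.

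Ywhae ranked between 12 and 468 among the genes of a library, and Ywhaz between 16 and 545. The same high ranks in Cre-negative SC, at best 13 for Ywhae and 16 for Ywhaz, place both mRNAs among the abundant background of the purification. Their balance was unstable between replicates in the adult SC. The ratio of Ywhae to Ywhaz was 1.04 and 37.9 in the 2 Cre-positive libraries and 0.641 and 0.0430 in the 2 Cre-negative ones, against 0.555 and 0.754 in adult retina. Expressed as a share of the whole library, the 6 genes together held from 0.207% to 1.86% of all FPKM.

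**Figure D2:**
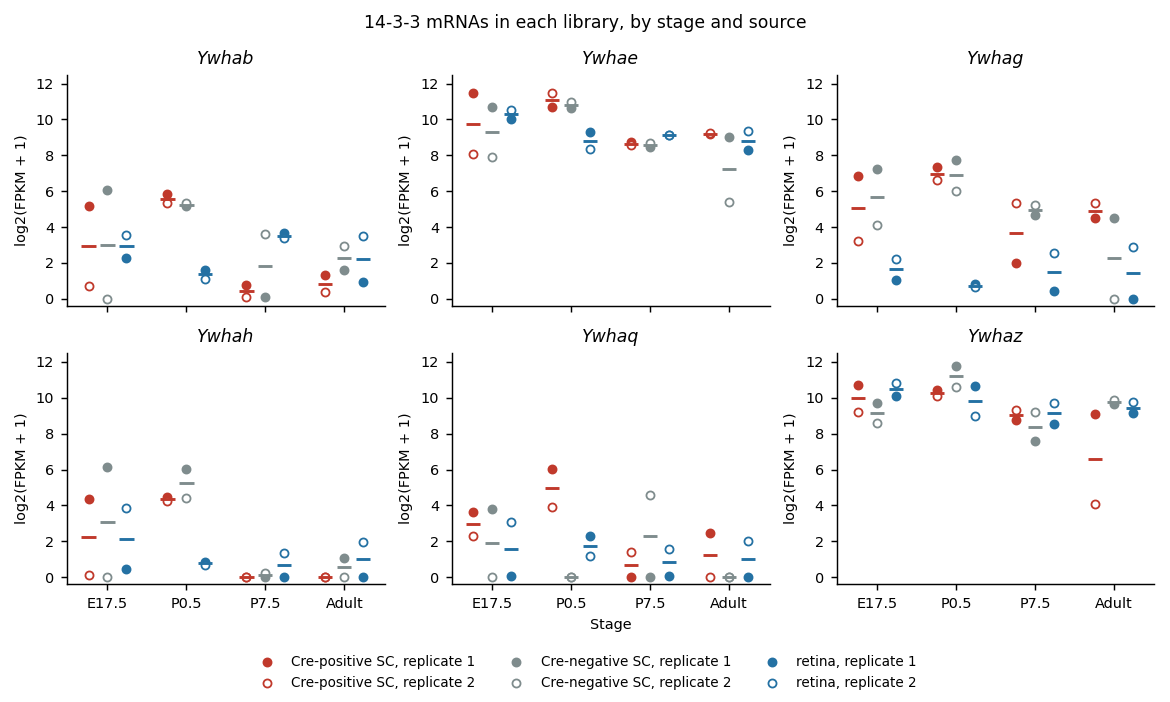
Each panel plots 1 gene as log2(FPKM + 1) (y axis) against stage (x axis), with filled circles for replicate 1, open circles for replicate 2, and a bar at the mean of the 2 on that log scale. Both SC groups are high at P0.5 and lower at P7.5 for most genes, and Ywhag in SC lies above retina in all but 2 SC libraries.

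Setting Cre-positive against Cre-negative SC asks which mRNAs are bound to tagged axonal ribosomes rather than carried over from SC cells. Of the 6 genes, Ywhaq alone passed the test, and at P0.5 only. At P0.5, Ywhaq stood at 63.7 and 14.2 FPKM in Cre-positive SC and was listed at 0 in both Cre-negative libraries. Those Cre-negative libraries listed only 2162 and 2546 genes above 0, against 4620 and 4923 in the Cre-positive ones. Whether a 0 there marks absence or a missed mRNA was not tested. The Ywhaq values of the Cre groups did not overlap. The difference was 4.97 on the log2(FPKM + 1) scale, a scale that understates changes of low values (SE 1.68, 95% interval 1.25 to 8.69, n = 2 per group, limma adjusted p = 0.0436). At that stage 28.1% of the 5983 genes tested were called higher and 4.35% lower, so 1 higher call among 6 genes was below the share of all genes. In 10 of 16 fits that left out a library the call was lost, with the adjusted p between 0.0503 and 0.320 there. These were the fits without any 1 of the 4 P0.5 libraries, the E17.5 or P7.5 Cre-positive libraries, or the adult Cre-negative libraries. It did not hold with a pseudocount of 0.1 (adjusted p = 0.0591), nor without the filter on low values (adjusted p = 0.0754). NOISeq-style scoring, which sets each difference against the spread between replicates, gave Ywhaq a probability of 0.879 at P0.5, past the limit of 0.7. It called no other member at any stage. At P0.5 this score called 1591 of 5500 genes higher and 333 lower. By this score too, 1 higher call among 6 genes was below the share of all genes.

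The Ywhaq pattern was not seen at the other stages. At E17.5 it stood at 11.3 and 4.00 FPKM in Cre-positive SC and at 13.0 and 0 in Cre-negative SC. At P7.5 the order of the group means turned, with 0 and 1.62 in Cre-positive and 0 and 23.4 in Cre-negative SC. In the adult it was 4.60 and 0 against 0 and 0. Over the 8 Cre-negative libraries Ywhaq was listed at 0 in 6, against 2 of 8 in Cre-positive SC. The test of whether the Cre difference varied over the 4 stages gave F = 2.60 for Ywhaq (adjusted p = 0.281), and none of the 6 genes passed it, while 21.9% of all genes did. That the Cre difference of Ywhaq was particular to P0.5 was therefore not shown.

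Neither of the major forms passed between the Cre groups at P0.5. Ywhae, at 1666 and 2839 FPKM in Cre-positive SC, stood at 1584 and 2002 in Cre-negative SC, a log2 difference of 0.29 (95% interval -2.74 to 3.31). Ywhaz, at 1376 and 1108 FPKM, was at 3539 and 1567 in the Cre-negative libraries, so that both tagged libraries lay below both untagged ones (log2 difference -0.93, 95% interval -3.93 to 2.07, adjusted p = 0.855). Ywhab lay slightly higher with Cre in both libraries, at 55.3 and 39.995 against 34.8 and 39.2 FPKM. For comparison, 51.3% of genes lay higher and 10.6% lower with Cre in both libraries at this stage. Only genes above 0 in both Cre-negative libraries can lie lower, and these libraries listed 2162 and 2546 genes above 0. The intervals of these members span several-fold changes either way and do not show that the groups were alike.

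In adult SC none of the 6 genes passed, where 0.0836% of genes were called higher and 0.0669% lower. Ywhae stood at 573 and 602 FPKM in Cre-positive and at 522 and 41.2 in Cre-negative SC. Ywhaz ran the other way, at 551 and 15.9 with Cre and 814 and 958 without (log2 difference -3.20, 95% interval -6.20 to -0.19, adjusted p = 1). In both cases a replicate 2 library lay far below the other 3 values. The replicate 2 libraries listed 1640 (Cre-positive) and 1162 (Cre-negative) genes above 0, against 2756 and 3841 in replicate 1. Without the second Cre-positive library the difference of Ywhaz was -0.68, and without the second Cre-negative library that of Ywhae was 0.17 in place of 1.99. Ywhag was at 21.5 and 39.5 against 22.0 and 0, and Ywhab at 1.46 and 0.279 against 2.07 and 6.69 FPKM. Ywhab and Ywhaz thus lay lower and Ywhae higher with Cre in both libraries, as did 3.93% and 3.88% of genes. Lying lower needs both Cre-negative libraries above 0, and lying higher needs both Cre-positive ones above 0. With so few genes listed above 0, these shares of all genes understate those among genes able to differ in this way. At E17.5 and P7.5 no member passed either, and the log2 differences lay between -0.83 (Ywhah) and 1.06 (Ywhaq) at E17.5 and between -1.61 (Ywhaq) and 0.67 (Ywhaz) at P7.5. At E17.5, 0.468% of genes were called higher and 1.1% lower with Cre, and at P7.5 no gene of the 5983 passed, with 25 higher and 59 lower at an unadjusted p under 0.05.

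**Figure D3:**
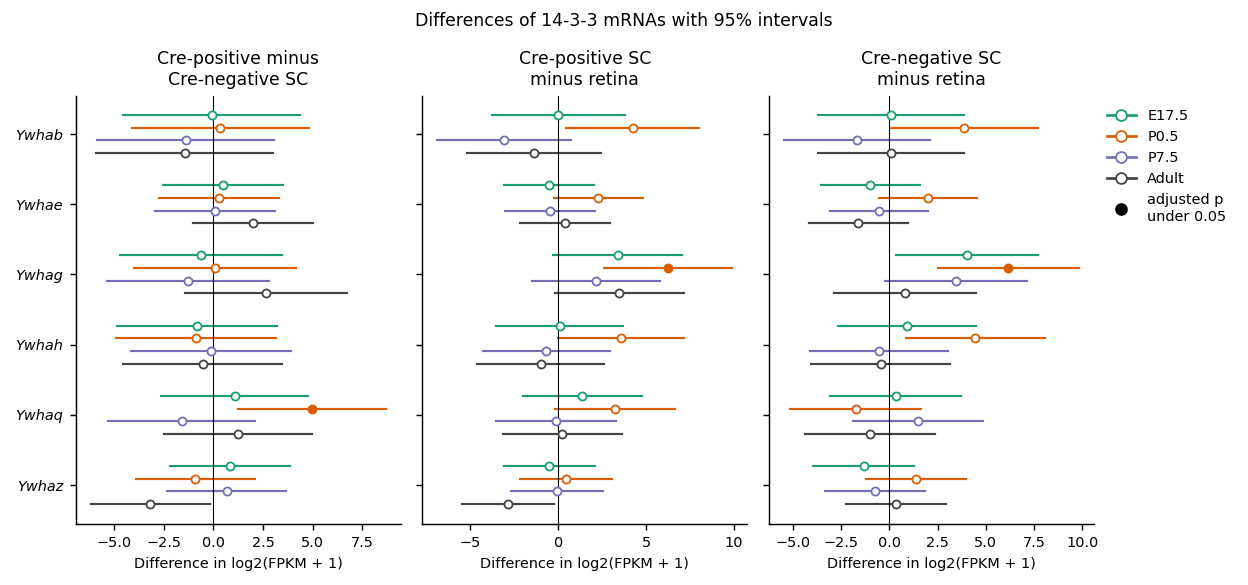
Points give the difference in log2(FPKM + 1) (x axis) for each gene and stage with its 95% interval from limma, for Cre-positive against Cre-negative SC and for each SC group against retina; filled points have an adjusted p under 0.05. The filled points are Ywhaq at P0.5 between the Cre groups and Ywhag at P0.5 for either SC group against retina.

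Ywhag, a form enriched in brain and muscle, was called by source and not by Cre. In retina it never exceeded 6.48 FPKM, and 14 of 16 SC libraries lay above that value, 7 of 8 with Cre and 7 of 8 without. At P0.5 it reached 159 and 96.0 FPKM in Cre-positive SC, 213 and 64.5 in Cre-negative SC, and only 0.738 and 0.563 in retina. Both SC groups thus lay far above retina and overlapped each other. The log2 difference from retina was 6.24 for Cre-positive SC (SE 1.73, 95% interval 2.58 to 9.90, limma adjusted p = 0.0120) and 6.16 for Cre-negative SC (95% interval 2.50 to 9.83, adjusted p = 0.0453). These differences share the retina libraries, and the second was added after the values had been seen. At P0.5, 26.4% of the 7193 genes tested were called higher in Cre-positive SC than in retina and 1.49% lower, and for Cre-negative SC 5.24% and 0.667%. The call against Cre-positive SC was lost when any of the P0.5 Cre-positive or P0.5 retina libraries was left out (adjusted p up to 0.120), with the direction kept. The call against Cre-negative SC was lost in 14 of 24 such fits (adjusted p up to 0.480), with a pseudocount of 0.1 (adjusted p = 0.118) and without the filter (adjusted p = 0.0587). Between the Cre groups Ywhag differed by 0.08 on the log2 scale at P0.5 (SE 1.84).

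At the other stages Ywhag kept this order of the sources without a call. At E17.5 it was at 115 and 8.23 FPKM in Cre-positive SC, 152 and 16.1 in Cre-negative SC and 1.09 and 3.70 in retina. At P7.5 it was at 2.95 and 38.8, 24.7 and 36.1, and 0.374 and 4.81 FPKM in the same order. In the adult it was at 21.5 and 39.5, 22.0 and 0, and 0 and 6.48. Both zeros came from libraries with few genes above 0. These were 1162 genes in Cre-negative SC, against 3841 in its other library, and 2082 in retina, against 8079. The exceptions to the order were the first P7.5 Cre-positive and the second adult Cre-negative library, both below the highest retina value. Retina and SC are different tissues, and in the untagged SC the mRNA can come from any SC cell, so fewer cells of a type and less RNA per cell cannot be told apart. The 10 markers of RGCs summed to between 152 and 7801 FPKM in retina, to between 29.5 and 3655 in Cre-positive SC and to between 0 and 2143 in Cre-negative SC, so the ranges overlapped. Rbpms, a defining RGC gene, was at 0 in every SC group and also in P7.5 and adult retina. The part of RGC content in the Ywhag difference was not tested.

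None of the other 5 genes passed against retina at any stage. At E17.5, 0.459% of all genes lay higher in Cre-positive SC past the threshold and 0.862% lay lower, at P7.5 none was (131 higher and 81 lower at an unadjusted p under 0.05), and in the adult 0.0973% were higher. At P0.5 Ywhab was at 2.05 and 1.16 FPKM in retina, below the 55.3 and 39.995 of Cre-positive SC (log2 difference 4.23, 95% interval 0.44 to 8.02, adjusted p = 0.0951). Ywhae was at 620 and 320 FPKM in P0.5 retina, a log2 difference of 2.29 (adjusted p = 0.194). Ywhah, at 0.794 and 0.629 in retina and 21.1 and 17.8 in Cre-positive SC, differed by 3.58 (adjusted p = 0.142), and Ywhaq, at 3.98 and 1.27 in retina, by 3.22 (adjusted p = 0.164). For these 4 genes and Ywhag the tagged SC lay above retina in both libraries, as it did for 48.3% of genes. Ywhaz overlapped, with 1613 and 512 FPKM in retina. When P0.5 was fitted on its own, Ywhab, Ywhae, Ywhag, Ywhah and Ywhaq all passed, and 3370 genes passed in place of 2007. Calls thus rose among genes at large and not in the family alone. Genes were filtered anew for that fit, so 3370 is no share of the 7193. The share of genes called in that fit is not given here, so the 5 members called do not set the family apart.

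Between P0.5 and P7.5 in SC no member passed the test, with or without Cre. In Cre-positive SC both P7.5 libraries lay below both P0.5 libraries for 6 of 6 members, as they did for 51.8% of all genes, while 9.69% lay above. In Cre-negative SC this held for 5 of 6, against 17.7% of all genes, with 16.5% above, while Ywhaq was listed at 0 and 0 at P0.5 and stood at 0 and 23.4 FPKM at P7.5. A gene at 0 in a P0.5 library cannot lie lower at P7.5. The P0.5 Cre-negative libraries listed only 2162 and 2546 genes above 0, so 17.7% understates the share among genes able to fall. Markers of glia moved over the same step. The 7 astrocyte markers summed to 60.8 and 51.9 FPKM at P0.5 and 300.3 and 672 at P7.5 with Cre, and to 15.9 and 38.3 and then 201 and 379 without, with 4 of 7 above 0 at P0.5 and 5 of 7 at P7.5 in each group. Aqp4 and S100b, which define astrocytes, were at 0 at both stages. The 8 oligodendrocyte markers summed to 84.7 and 86.6 and then 26.6 and 70.7 FPKM with Cre, and overlapped between the stages without it. The part of these cells in the values of the members was not tested. Ywhab went from 55.3 and 39.995 FPKM at P0.5 to 0.707 and 0.0706 at P7.5 in Cre-positive SC, and from 34.8 and 39.2 to 0.0550 and 11.1 in Cre-negative SC. Ywhah went from 21.1 and 17.8 to 0 and 0 with Cre, and from 64.1 and 20.5 to 0 and 0.179 without. Ywhae went from 1666 and 2839 to 419 and 380 with Cre, and from 1584 and 2002 to 353 and 411 without. The ranges of Ywhae with and without Cre overlapped at each of these stages.

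In Cre-positive SC the log2 differences were -5.15 for Ywhab (adjusted p = 0.0813), -4.35 for Ywhah (adjusted p = 0.102), -4.28 for Ywhaq (adjusted p = 0.0825), -3.31 for Ywhag, -2.44 for Ywhae and -1.22 for Ywhaz, where 29.2% of all genes were called lower and 0.501% higher. In Cre-negative SC they were -5.11 for Ywhah (adjusted p = 0.193), -3.41 for Ywhab, -2.82 for Ywhaz, -2.22 for Ywhae and -1.94 for Ywhag, and 2.30 for Ywhaq, with 4.6% of genes called lower and 0.234% higher. From E17.5 to P0.5 the differences in Cre-positive SC lay between 0.29 (Ywhaz) and 2.64 (Ywhab), none of which passed, and 25.1% of genes were called higher and 1.81% lower. From P7.5 to the adult they lay between -2.46 (Ywhaz) and 1.27 (Ywhag), with 0.0836% of genes called higher.

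The E17.5 SC libraries were far apart within each group. Replicate 1 exceeded replicate 2 for 6 of 6 members in Cre-positive SC and for 6 of 6 in Cre-negative SC, while it did so for 34.2% and 46.8% of all genes. Ywhae stood at 2835 and 264 FPKM with Cre and at 1681 and 234 without. Ywhah stood at 19.2 and 0.0976 with Cre and at 69.5 and 0 without. Markers of microglia and blood moved with this split, at 751 and 0.367 summed FPKM in the Cre-positive libraries and 1655 and 5.80 in the Cre-negative ones, with the microglial genes Cx3cr1, Csf1r and P2ry12 at 0 in all 4. RGC markers ran the other way in both Cre groups, at 136 and 3655 in the Cre-positive libraries and 99.97 and 2143 in the Cre-negative ones. Of these markers, Rbpms and Thy1 were at 0 in both Cre-positive libraries. Rbpms, Sncg, Isl1 and Nefm were at 0 in both Cre-negative ones, so the sums come from the rest of the list. The part of any of these cells in the E17.5 values of the family was not tested.

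In retina no member passed the test over the 4 stages, which 0.539% of 4080 genes passed. Ywhae was at 1049 and 1486 FPKM at E17.5, 620 and 320 at P0.5, 550 and 556 at P7.5 and 313 and 652 in the adult. Ywhaz was at 1116 and 1840, 1613 and 512, 373 and 841, and 563 and 865 FPKM in the same order. Ywhab, Ywhae and Ywhag were lower at P0.5 than at E17.5 in both libraries, as were 26.8% of all genes, while 6.35% were higher. Photoreceptor markers in retina summed to at most 5.43 FPKM at E17.5 and P0.5 and to 536 and 245 in the adult. At P7.5 the replicates were far apart, at 2.21 and 285. In adult SC the same markers summed to 80.7 and 1.44 FPKM without Cre and to 3.22 and 5.01 with it. The source of the 80.7 in untagged SC was not tested.

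The run-off libraries ask which mRNAs are held by elongating ribosomes, which finish and leave the mRNA in a lysate where new initiation is blocked. There was 1 library per condition, so the values describe these libraries and carry no test. The reads on genes came to 3262914 without and 349395 with run-off in SC, and to 4686284 and 315009 in retina, totals in which run-off and sequencing depth cannot be told apart. All 6 members had fewer reads with run-off in both tissues, as did 90.2% of genes in SC and 93.5% in retina. The family kept 6.15% of its reads in SC and 5.88% in retina. Set against the library totals, which kept 10.7% and 6.72%, its share was 0.574 of the share without run-off in SC and 0.875 of it in retina. The median ratio of shares was 0.371 over the 6 members in SC and 0.837 in retina, against 0.0116 and 0 over all genes counted. Most of those genes had far fewer reads than Ywhae or Ywhaz, so the medians are not on the same footing.

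Within the family the ratios were uneven in SC. Ywhaq went from 235 reads to 0, a share 8.39-fold lower if a floor of 3 reads is put in place of the 0. Ywhab went from 474 to 5 reads (ratio of shares 0.0985, 95% counting interval 0.0318 to 0.232) and Ywhag from 5046 to 70 (0.130, interval 0.101 to 0.164). For Ywhaq the counting interval of the ratio reached 0.148. The intervals of these 3 genes lay below those of the other 3, with Ywhae going from 35473 to 2323 reads (ratio 0.612, interval 0.586 to 0.638), Ywhaz from 11218 to 819 (0.682, interval 0.634 to 0.732) and Ywhah from 576 to 42 (0.681, interval 0.485 to 0.932). So 3 of 6 members had their share lowered at least 2-fold, against 69.7% of the 4294 genes with at least 10 reads in either library.

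In retina the share of 2 of 6 members was at least 2-fold lower with run-off, against 60.9% of 6946 genes, and that of 1 at least 2-fold higher, against 22.9%. Ywhag went from 672 reads to 5 (ratio 0.111, interval 0.0358 to 0.260) and Ywhab from 189 to 5 (0.394, interval 0.126 to 0.935). Ywhag thus had ratios below 0.2 in both tissues. Ywhae lay near 1, with 30475 and 2019 reads (ratio 0.986, interval 0.942 to 1.03), and Ywhaz went from 16787 to 777 (0.689, interval 0.640 to 0.740). Ywhah went from 198 to 28 reads (ratio 2.10, interval 1.36 to 3.14) and Ywhaq went from 155 to 17 (1.63, interval 0.927 to 2.70). Ywhaq, with 0 reads left in SC, thus had an interval that included 1 in retina, and the ratios of Ywhah lay on opposite sides of 1. These differences between the tissues were not tested. The intervals cover counting error only, and PCR-amplified reads are not independent molecules, so the true spread is wider.

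**Figure D4:**
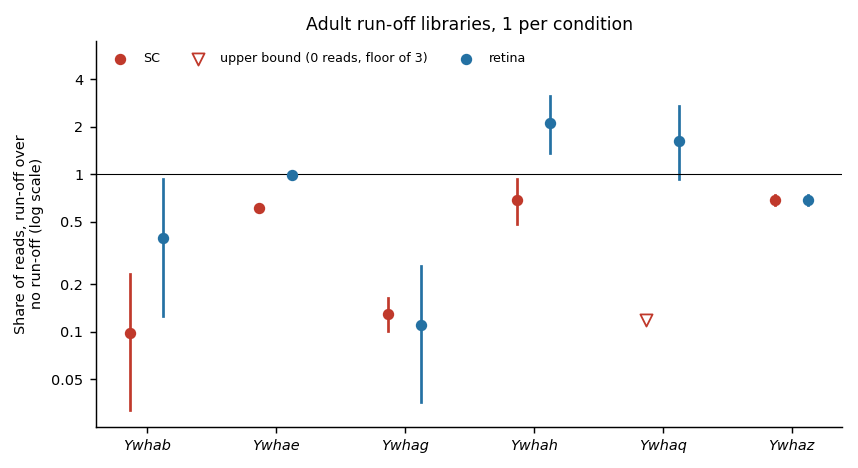
Points give, for each gene, the share of a library's gene reads with run-off divided by the share without (y axis, log scale). They cover adult Cre-positive SC and adult retina, with 95% counting intervals. The open triangle, labelled an upper bound, sets Ywhaq in SC at the floor of 3 reads, since it had 0. The upper limit of its counting interval, 0.148, lies above the triangle. Ywhab, Ywhag and Ywhaq lie low in SC, and Ywhag alone lies below 0.2 in both tissues.

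The genes whose levels over the 24 libraries ran most like each member were drawn from 1440 genes at 1 FPKM or more in at least 12 libraries, by Pearson's r of log2(FPKM + 1). Since the libraries differ in depth and complexity, a shared high r is a description. For Ywhag they were Sema6b (r = 0.916), Prkaca (0.887) and Ftl1 (0.849), for Ywhaq Stmn2 (0.879), Cdk4 (0.872) and Ndufb9 (0.860), and for Ywhah Slc25a5 (0.936), Cope (0.920) and Hspa8 (0.920). Sema6b encodes a transmembrane semaphorin, Prkaca a catalytic subunit of protein kinase A, and Stmn2 a regulator of axonal microtubules. For Ywhab they were Atxn10 (0.868), Slc25a5 (0.809) and Rnasek (0.808), for Ywhae Deb1 (0.878), Tsn (0.795) and Rnasek (0.794), and for Ywhaz Fkbp8 (0.728), Dnmt3a (0.725) and Ralb (0.705). Among the members themselves r was highest between Ywhab and Ywhah (0.857) and lowest between Ywhag and Ywhaz (0.0945). Ywhaz was the member least like any other gene.

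Partners of the family were described from 3 lists. Of 40 genes for 14-3-3 clients, 18 reached the level for the test in SC, and at P0.5 5 of these were higher and 0 lower with Cre, or 27.8% against 28.1% of all genes, with a median log2 difference of 0.73 against 0.78. Akt1s1, an inhibitor of mTOR complex 1 that is held by 14-3-3 once phosphorylated, stood at 82.0 and 52.2 FPKM with Cre and at 0.144 and 0.0825 without (log2 difference 5.90, adjusted p = 9.95e-04). Bad, a pro-death BCL2 relative that 14-3-3 sequesters, was at 22.1 and 32.5 against 0 and 0, Tsc2, a brake on mTOR signalling, at 24.7 and 24.5 against 0.0248 and 0, and Bcr at 18.5 and 16.2 against 0 and 0.0132. These 4 were named for the size of this difference, so their low untagged values are a description. The P0.5 Cre-negative libraries listed fewer genes above 0, as given for Ywhaq, and whether a 0 there marks absence was not tested. Of 21 basophilic kinases that create 14-3-3 sites, 13 were tested, and Camk1 (26.7 and 7.14 FPKM against 0.118 and 0) and Mark1 (11.2 and 10.8 against 0 and 0) were higher while Rps6ka1 (0 and 0 against 26.7 and 15.2) was lower, so 15.4% were called higher, against 28.1% of all genes, and 1 of 13 lower, against 4.35%. Of 15 kinases and phosphatases that act on the dimer or on client sites, 9 were tested and only Csnk1a1 passed, at 10.1 and 9.70 FPKM against 0 and 0, or 11.1% called higher against the same 28.1%. In the other 3 stages no gene of the 3 lists passed between the Cre groups.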

How the data were processed

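The authors aligned reads (TopHat2 2.0.12, mm10) and, for 24 libraries, deposited FPKM estimated by Cufflinks (2.2.1), and the count of reads per gene from HTSeq 0.6.1p1 for 4 run-off libraries. Members and lists were chosen with earlier results of these data known. A linear model of log2(FPKM + 1) was fitted in limma 3.58.1 (R 4.3.3, statmod 1.5.0), whose variance prior followed the mean level and was estimated robustly, over genes at 1 FPKM or more in at least 2 libraries. All SC libraries were fitted together for Cre and stage (5983 genes), all 24 for retina against SC (7193) and the 8 retina libraries alone (4080). Two-sided p-values were adjusted over all genes of a contrast by the method of Benjamini and Hochberg (threshold 0.05), and since the labels name no animals they measure the spread between these samples. The fit was tested on simulated data. Alternatives changed the pseudocount, filter, scaling, moderation, replicate block, samples fitted and test; the Cre-negative comparisons with retina and over stages were added after seeing the data. Named genes were the 6 members, Sfn, the 3 genes most like each member, and up to 4 genes per list and Cre comparison past the threshold with the largest difference. NOISeq-style scores replaced 0 by 0.5 FPKM. The FPKM files give no read totals: the spacing of low values placed the libraries between 482745 and 13787085 fragments (at most 2062115 in the 4 adult SC libraries and the first E17.5 Cre-negative one), with 58.1% to 79.5% of values within 0.15 of a whole fragment, too few for a count test. In the run-off counts, intervals are at 95% and the floor is 3 reads. Sequences are GENCODE M21 transcripts on GRCm38, the assembly that mm10 names. Entries missing for 4 genes touched no member. Other steps used pandas 2.3.3, Biopython 1.88, scipy 1.17.1, numpy 2.4.6 and matplotlib 3.10.9 in Python 3.11.15.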

Additional observations from a re-analysis of the deposited data

Results flagged for a closer look

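The difference of Ywhab between Cre-positive and Cre-negative SC pointed in opposite ways at 2 stages, with no overlap of the libraries at either. It was 0.34 on the log2(FPKM + 1) scale at P0.5, where both Cre-positive libraries were above both Cre-negative ones, and -1.45 in the adult, where both were below. At P0.5, 51.3% of genes lay higher in this way, and the nearest Ywhab values were 39.995 with and 39.2 FPKM without Cre. In the adult, 3.93% of genes lay lower, which needs both Cre-negative libraries above 0. Those libraries listed 3841 and 1162 genes above 0, so 3.93% understates the share among genes able to lie lower. In the adult the Cre-positive values of Ywhab were 1.46 and 0.279 FPKM, where 3 fragments are roughly worth 1.37 and 0.780. The Cre-negative values were 2.07 and 6.69, against 1.95 and 0.483. The change over the 4 stages did not pass the test for Ywhab (F = 0.207, adjusted p = 0.996).

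The run-off share ratio of Ywhah lay on opposite sides of 1 in the adult tissues, at 0.681 in SC and 2.10 in retina, with counting intervals that excluded 1 in both. With 1 library per condition, the difference between the tissues was not tested.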

How the results depend on the processing

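Of 1940 alternative values for 82 tests of a member, 1846 kept their direction and their side of the threshold, 32 lost a call, 15 gained one and 47 changed sign, none of the last in a result that had passed.

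The values rest on 2 libraries a group, on amplified cDNA and on an FPKM scale with many entries at 0, so only large differences can pass. Same-numbered libraries of the 2 Cre groups deviated together at the first 3 stages (r = 0.394, 0.429 and 0.319 across 7193 genes) but hardly in the adult (0.0619), and the labels do not say that a number marks a litter. With the replicate number as a block, the Cre comparison called 19 genes in place of 94 at E17.5 and 0 in place of 9 in the adult, Cre-positive SC against retina 15 in place of 7 in the adult, and the step from P7.5 to the adult 3 in place of 5, and the block changed no call of a member.

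Of the other settings, the fit of 1 stage alone called 0 genes between the Cre groups at E17.5 and in the adult, and against retina 0 at E17.5, 3370 at P0.5 (5 members in place of 1), 10 at P7.5 and 0 among adults. The share that the 3370 genes make up is not given, so the 5 members do not set the family apart. The NOISeq-style score called 1127 adult genes, 741 at E17.5 and 509 at P7.5. With a pseudocount of 0.1, 57 genes were called against retina at E17.5 in place of 95, and 0 members between the Cre groups at P0.5. Without the filter 219 were called against retina at E17.5 and 4 at P7.5, 3 from P7.5 to the adult, 0 across retinal stages in place of 22, and 0 members between the Cre groups at P0.5. Across retinal stages, median-ratio scaling called 0 and no robust moderation 3. In run-off, a share lowered at least 2-fold was found for 67.8% of genes in SC and 66.4% in retina with at least 1 read, for 41.7% in retina with at least 100, and without scaling for 88.0% and 90.3% and for 6 of 6 members in both tissues. The log2 difference changed sign for Ywhab at E17.5 (0.99 between the Cre groups and -0.39 against retina with a pseudocount of 0.1, -0.010 against retina with median-ratio scaling), for Ywhah against retina at E17.5 (-0.39, pseudocount of 0.1) and for Ywhae between the Cre groups at P7.5 (-0.10, median-ratio scaling). The cause was not tested.

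Leaving out each library in turn, the number of genes called ran, between the Cre groups, over 0 to 865 at E17.5, 448 to 2172 at P0.5, 0 to 55 at P7.5, and 3 to 112 in the adult; against retina over 23 to 512 at E17.5, 611 to 2263 at P0.5, 0 to 106 at P7.5, and 6 to 149 in the adult. It ran over 231 to 1885, 273 to 2065 and 0 to 85 for the consecutive steps of Cre-positive SC, 0 to 1944 for the Cre difference across stages and 2 to 61 for retina across stages. Members past the threshold ran over 0 to 1 between the Cre groups at P0.5, 0 to 3 and 0 to 1 against retina at P0.5 and in the adult, 0 to 2 for the step from P0.5 to P7.5 and 0 to 1 for the Cre difference across stages; the last and the adult value against retina were Ywhaz without the first adult Cre-positive library. 

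The log2 difference of a member changed sign in at least 1 such fit as follows. Between the Cre groups at E17.5, Ywhab ran from -3.10 to 2.94, Ywhae ran from -1.25 to 2.17, Ywhag ran from -2.47 to 1.19, Ywhah ran from -3.90 to 2.24, Ywhaq ran from -0.84 to 2.97. Between the Cre groups at P0.5, Ywhae ran from -0.10 to 0.67, Ywhag ran from -0.78 to 0.93. Between the Cre groups at P7.5, Ywhab ran from -3.16 to 0.36, Ywhae ran from -0.041 to 0.18, Ywhag ran from -2.96 to 0.37, Ywhaq ran from -3.91 to 0.70, Ywhaz ran from -0.13 to 1.47. For Cre-positive SC against retina at E17.5, Ywhab ran from -2.24 to 2.25, Ywhae ran from -2.24 to 1.18, Ywhah ran from -2.02 to 2.18, Ywhaq ran from -0.13 to 2.89, Ywhaz ran from -1.25 to 0.25. For Cre-positive SC against retina at P0.5, Ywhaz ran from -0.39 to 1.27. For Cre-positive SC against retina at P7.5, Ywhaq ran from -0.86 to 0.60, Ywhaz ran from -0.66 to 0.51. For Cre-positive SC against retina in the adult, Ywhae ran from -0.15 to 0.91, Ywhaq ran from -1.01 to 1.48. For Cre-negative SC against retina in the adult, Ywhag ran from -1.45 to 3.07. From E17.5 to P0.5 in Cre-positive SC, Ywhae ran from -0.38 to 3.04, Ywhaz ran from -0.46 to 1.04. From P7.5 to the adult in Cre-positive SC, Ywhab ran from -0.080 to 0.87, Ywhag ran from -0.40 to 2.93, Ywhaq ran from -0.70 to 1.79, Ywhaz ran from -4.98 to 0.054.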
